A study of Homo sapiens with 6 samples.

Results

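The genes for RNA-binding proteins that set neuronal splicing and mRNA stability followed here were ELAVL1, ELAVL2, ELAVL3, ELAVL4, NOVA1, NOVA2, PTBP1, PTBP2, RBFOX2 and CELF1. They were named by gene family, with no threshold on a value, and all 10 were among the 13885 genes listed in the authors' deposited table. The choice was made with earlier results of these data known. RBFOX1, PTBP3, CELF3 and CELF4, of the same families, were also measured but are not among the 10. The study compared 3 samples of BE(2)-C cells transfected for 24 h with a small interfering RNA (siRNA) to PCIF1 (siPcif1) with 3 transfected for 24 h with a scrambled siRNA (siScram). All 6 samples were then kept for 4 days in 10 µM all-trans retinoic acid (ATRA), so no untreated cells enter the comparison. BE(2)-C is a human neuroblastoma cell line, labelled wild type here, that becomes more neuron-like in ATRA, and knockdown of PCIF1 was by 1 siRNA. PCIF1 is the enzyme that methylates a cap-adjacent adenosine of mRNA to m6Am.

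In these families the members are known to have different places in development. PTBP1 is a repressor of neuronal exons in most non-neuronal cells, and PTBP2 is the paralog that takes over as neurons form, before it falls in mature neurons. ELAVL1 (HuR) is present in nearly all cells, whereas ELAVL2 (HuB), ELAVL3 (HuC) and ELAVL4 (HuD) are mostly neuronal and bind AU- and U-rich stretches that stabilise mRNAs or steer splicing. NOVA1 and NOVA2 bind UCAU repeats, RBFOX proteins bind UGCAUG, and CELF1 binds GU-rich elements.

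A short coding exon shared by the PTBP genes is shown because it is known to couple their levels. PTBP1 protein is known to promote skipping of this exon in PTBP2 mRNA and, in its own mRNA, of the exon's counterpart, and each skipped form has a frameshift and is degraded. The exon is 34 bases long in both, which is not a multiple of 3. It is exon 10 of 14 in the main GENCODE 29 transcript of either gene, at chr19:807869-807902 in PTBP1 and chr1:96806419-96806452 in PTBP2 (GRCh38, plus strand for both), and the PTBP3 counterpart lies at chr9:112231380-112231413 on the minus strand. The sequences are given 5′ to 3′, with capitals marking bases that differ from PTBP1.
PTBP1: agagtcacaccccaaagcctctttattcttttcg
PTBP2: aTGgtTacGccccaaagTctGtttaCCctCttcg
PTBP3: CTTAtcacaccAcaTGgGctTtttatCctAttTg
PTBP2 matched PTBP1 at 25 of the 34 bases and PTBP3 matched it at 22. Use of the exon cannot be read from values summed over a gene, so the results below are on total levels only.

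The annotated starts are shown because m6Am is placed only where the first transcribed base is A. For the 6 members that passed the test below, the RefSeq start (GRCh38.p14) nearest to the start of the main GENCODE transcript is given with 20 bases before it, the first base in capitals, and the 9 bases after it. ELAVL1, ELAVL3 and RBFOX2 had no entry.
ELAVL2 (chr9:23826231-23826260, minus strand): gtccagtccacctcccttttAagacgtcct
ELAVL4 (chr1:50108900-50108929, plus strand): atgtaaaaaggggaagcttcGagccaattt
NOVA1 (chr14:26598024-26598053, minus strand): cgagcagcccaggcaacggcAgaaccgctc
PTBP1 (chr19:797432-797461, plus strand): ccgttgggtcggttcctgctAttccggcgc
PTBP2 (chr1:96722618-96722647, plus strand): gtttgaagccgacatcagtcAcatgggcaa
CELF1 (chr11:47494512-47494541, minus strand): caagaattttgaacaaatacAtactttgaa
PTBP1, which was lower, and PTBP2, which was higher, both have an annotated start at A. Over all RefSeq starts listed for the 7 members with an entry, 12 of 25 began with A, against 46.2% of 14402 starts of the genes tested. The start shown can lie well inside the annotated gene. For CELF1 it is at 47494521, where the gene begins at 47565569, and for ELAVL4 at 50108920, where the gene begins at 50048014. Which start these cells used was not measured.

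The direction of each fold change was read from the siRNA target. PCIF1 was at -0.82 (SE 0.19) in log2 units by the authors' deposited table (DESeq2, adjusted p = 0.000167), and this was taken as a decrease with siPcif1. The name of the table lists the scrambled group first, and in that plain order every sign below would turn. Of all genes in the authors' deposited table, 34.0% passed an adjusted p of 0.05 by DESeq2, with 16.3% higher and 17.7% lower in siPcif1 cells, and the median log2 fold change was 0.01. Whether the 3 samples of each group were grown as separate cultures is not stated, and the p-values cover only the spread among them, which may be technical. Since whole cultures were measured, a change in RNA per cell and a change in the share of cells that express a gene cannot be told apart.

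More of the 10 regulators were higher than lower in siPcif1 cells. By DESeq2 in the authors' deposited table, 5 of 10 members rose (ELAVL2, ELAVL4, NOVA1, PTBP2 and CELF1), against the 16.3% of all genes that did. PTBP1 was the member that fell, 1 of 10 against the 17.7% of all genes, and ELAVL1, ELAVL3, NOVA2 and RBFOX2 did not pass. The median log2 fold change of the 10 by the authors' deposited table was 0.35. After a trend shared by all genes, with GC content, transcript and gene length and mean level, was taken out (below, the trend removed), 6 members passed as higher and 0 as lower, against 12.4% and 12.8% of all genes. Adjusted p-values marked below as from the DESeq2 statistics are normal tests of the remaining fold change over the deposited SE. They do not use the deposited Wald statistic and leave out error in the fitted trend. Values per library were not analysed here, so each result is the authors' estimate with its SE. With the Wald statistics rescaled to the robust SD they had over all genes, 2.44 in place of 1, 0 members passed an adjusted p of 0.05, against 0.965% of all genes. By DESeq2 as deposited, 6 members had an unadjusted p under 0.05, against 43.2% of all genes.

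**Figure D1:**
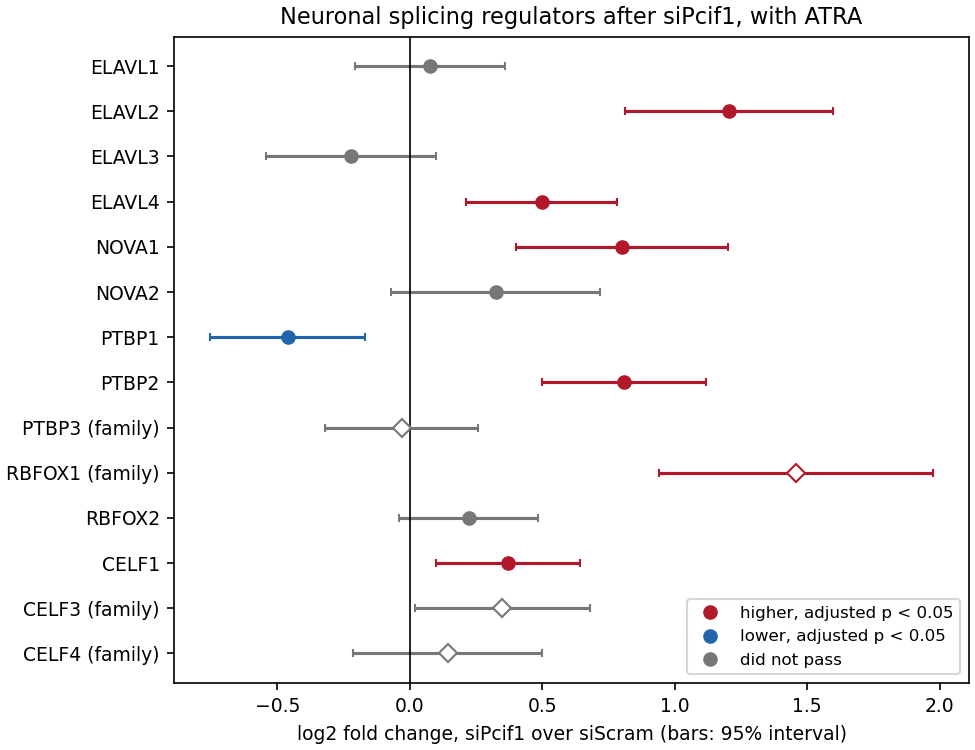
Log2 fold change, siPcif1 over siScram (x axis), of the 10 regulators (filled circles) and of 4 further measured genes of their families (open diamonds), with 95% intervals from the SE. The intervals of ELAVL2, ELAVL4, NOVA1, PTBP2, CELF1 and RBFOX1 lie above 0 and that of PTBP1 below it; CELF3, whose interval also lies above 0, did not pass after adjustment over all genes.

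The PTBP pair moved in opposite directions. PTBP1 (ENSG00000011304.19; chromosome 19, 797075 to 812327 on GRCh38) was at -0.46 (SE 0.15) by the authors' deposited table (DESeq2, adjusted p = 0.00864). That is 72.6% of its siScram level, with a 95% interval of 59.4 to 88.9% from the SE by the authors' deposited table. PTBP2 (ENSG00000117569.18; chromosome 1, 96721665 to 96823738) was at 0.81 (SE 0.16) by the authors' deposited table, or 175% of its siScram level (95% interval 141 to 217%), with a DESeq2 adjusted p of 5.16e-06. From both rows of the authors' deposited table the ratio of PTBP2 to PTBP1 RNA was 1.27 higher on the log2 scale in siPcif1 cells (95% interval 0.84 to 1.69, taking the 2 estimates as independent), or 2.41-fold.

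The decrease of PTBP1 did not pass with the trend removed. The main PTBP1 transcript has a GC content of 57.8%, that of PTBP2 36.9%, and the median over all genes was 48.8%. After removal of the shared trend from the authors' deposited table, PTBP1 was at -0.19 (adjusted p = 0.372, from the DESeq2 statistics). PTBP2 was then at 0.51 (adjusted p = 0.0083, from the DESeq2 statistics), and its increase passed either way. The difference between the pair was then 0.70. PTBP3, the third gene of the family, was at -0.03 (SE 0.15) by the authors' deposited table (DESeq2, adjusted p = 0.892). Of the PTBP1 transcript 3.49% of its 31-base windows also occur in the pseudogene PTBP1P, and 0 windows of PTBP2 occur in another gene.

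Among the ELAVL genes ELAVL2 and ELAVL4 rose. ELAVL2 (ENSG00000107105.14; chromosome 9, 23690104 to 23826337) had the largest increase of the 10, at 1.21 (SE 0.20) by the authors' deposited table (DESeq2, adjusted p = 5.46e-08), or 231% of its siScram level (95% interval 176 to 303%). It ranked 136 from the highest of 13885 fold changes by the authors' deposited table. ELAVL2 has the lowest GC content of the 10, at 36.2%, and was at 0.83 (adjusted p = 0.000379, from the DESeq2 statistics) with the trend removed. ELAVL4 (ENSG00000162374.16; chromosome 1, 50048014 to 50203786), a stabiliser of GAP43 and other growth cone mRNAs, was at 0.50 (SE 0.15) by the authors' deposited table (DESeq2, adjusted p = 0.00358), or 141% of its siScram level (95% interval 116 to 172%). With the trend removed ELAVL4 was at 0.53 (adjusted p = 0.00224, from the DESeq2 statistics).

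ELAVL1 and ELAVL3 did not pass. ELAVL1 (ENSG00000066044.14; chromosome 19, 7958579 to 8005659) was at 0.08 (SE 0.15, 95% interval -0.21 to 0.36) by the authors' deposited table (DESeq2, adjusted p = 0.725). ELAVL3 (ENSG00000196361.9; chromosome 19, 11451326 to 11481046) was at -0.22 (SE 0.16, 95% interval -0.54 to 0.10) by the authors' deposited table (DESeq2, adjusted p = 0.306). With the trend removed ELAVL3 was at -0.03 (adjusted p = 0.932, from the DESeq2 statistics). Taking the estimates of the authors' deposited table as independent, ELAVL2 exceeded ELAVL1 by 1.13 (95% interval 0.64 to 1.61) and ELAVL4 exceeded ELAVL3 by 0.72 (0.29 to 1.15) on the log2 scale. These differences were 0.82 and 0.56 with the trend removed. The 4 coding sequences share 70.4 to 77.9% of aligned bases, and their longest identical run is 26 bases. Of ELAVL3, 4.96% of the 31-base windows occur in other genes including AC008481.3, which it overlaps on its own strand by 220 bases; PTBP2, ELAVL2 and ELAVL4 share 0 such windows. ELAVL1 overlaps an antisense gene by 406 bases, and whether the counting used strand is unknown.

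NOVA1 rose, and NOVA2 did not pass. NOVA1 (ENSG00000139910.19; chromosome 14, 26443093 to 26597754) was at 0.80 (SE 0.20) by the authors' deposited table (DESeq2, adjusted p = 0.000733), or 174% of its siScram level (95% interval 132 to 230%). With the trend removed it was at 0.56 (adjusted p = 0.0297, from the DESeq2 statistics). NOVA2 (ENSG00000104967.6; chromosome 19, 45933734 to 45973546) was at 0.32 (SE 0.20) by the authors' deposited table (DESeq2, adjusted p = 0.213). The difference between the NOVA genes by the authors' deposited table was 0.48, and its 95% interval, -0.09 to 1.04 with the estimates taken as independent, includes 0. This difference was 0.18 with the trend removed.

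CELF1, which promotes decay of mRNAs with GU-rich elements, rose slightly. It was at 0.37 (SE 0.14) by the authors' deposited table (DESeq2, adjusted p = 0.0275), or 129% of its siScram level (95% interval 107 to 156%; ENSG00000149187.18; chromosome 11, 47465933 to 47565569). CELF1 overlaps exons of PTPMT1 and NDUFS3 on the opposite strand by 140 and 234 bases. CELF3 and CELF4, which are mostly neuronal, were at 0.35 (SE 0.17, adjusted p by DESeq2 = 0.093) and 0.14 (SE 0.18, adjusted p by DESeq2 = 0.587) by the authors' deposited table. CELF3 passed with the trend removed, at 0.65 (adjusted p = 0.0012, from the DESeq2 statistics).

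RBFOX2 did not pass, while its neuronal relative RBFOX1 rose. RBFOX2 (ENSG00000100320.22; chromosome 22, 35738736 to 36028425) was at 0.22 (SE 0.13, 95% interval -0.04 to 0.49) by the authors' deposited table (DESeq2, adjusted p = 0.198). With the trend removed it was at 0.46 and passed (adjusted p = 0.00506, from the DESeq2 statistics). The main RBFOX2 transcript used for the trend has 1356 bases and a GC content of 56.4%, and its coding sequence alone has 1353. The annotated 3′ untranslated region (3′ UTR) of up to 5459 bases is thus left out of that GC content and length. How far the call depends on this was not tested. RBFOX1, not among the 10, was at 1.46 (SE 0.26) by the authors' deposited table (DESeq2, adjusted p = 2.29e-06), at a mean of 31.6 normalised counts. RBFOX1 exceeded RBFOX2 by 1.24 by the authors' deposited table (95% interval 0.66 to 1.82, estimates taken as independent), and by 0.70 with the trend removed. The RBFOX coding sequences share a run of 47 bases, the longest among the paralogs compared. RBFOX3, CELF2, CELF5 and CELF6 were not listed in the authors' deposited table.

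**Figure D2:**
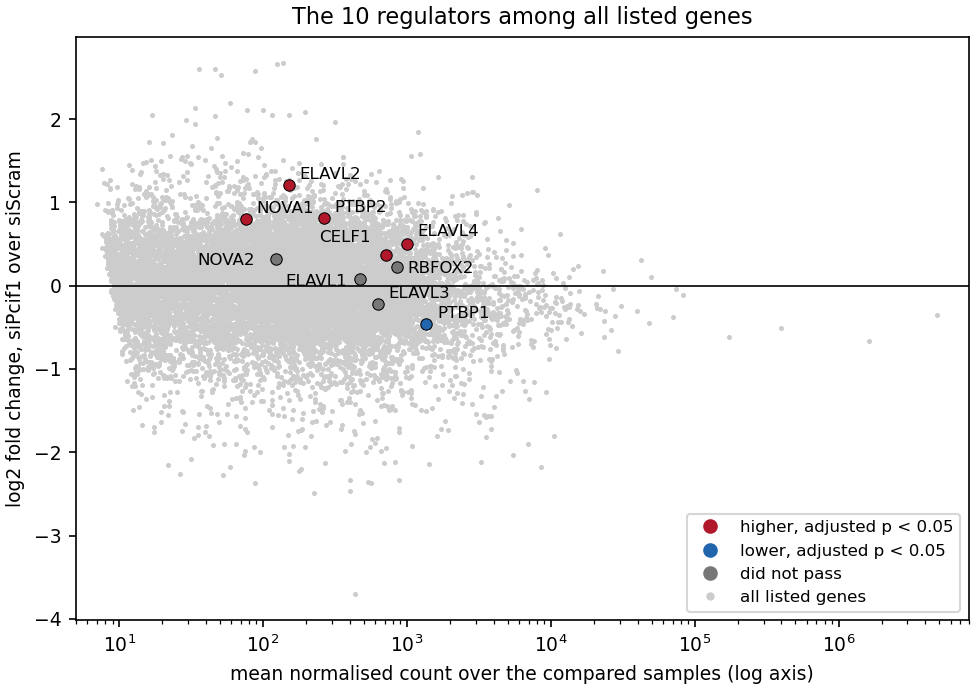
Log2 fold change, siPcif1 over siScram, against the mean normalised count (log axis) for all 13885 listed genes in grey and the 10 regulators as labelled points. ELAVL2, NOVA1 and PTBP2 lie near the upper edge of the genes of like mean; the remaining members lie within the bulk.

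Set against genes of like abundance, 3 increases stood near the upper edge. Of genes whose mean lay within 1.5 times that of the member by the authors' deposited table, 99.2% had a lower fold change than ELAVL2, 95.8% than PTBP2 and 94.1% than NOVA1. The corresponding share by the authors' deposited table was 88.7% for ELAVL4 and 83.1% for CELF1. For PTBP1 it was 18.2% by the authors' deposited table, so its decrease lay inside the common range of genes of like mean.

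Levels of the members spanned a wide range in these cells. Per kb of annotated exon, PTBP1 had the highest mean level of the 10 by the authors' deposited table, 198 normalised counts per kb, followed by ELAVL4 at 143 and ELAVL3 at 133. RBFOX2, CELF1 and ELAVL1 had mean levels of 85.1, 68.5 and 68.1 normalised counts per kb by the authors' deposited table. The members with the larger increases were low per kb, with mean levels of 29.6 for ELAVL2, 20.6 for PTBP2 and 7.59 for NOVA1 in normalised counts per kb from the authors' deposited table, and NOVA2 at 14.2. The median over all genes was 35.4 normalised counts per kb. PTBP1 thus had 9.64 times the mean level per kb of PTBP2 over the samples of the authors' deposited table. The spread over samples is not known, so neighbours in this order cannot be separated, and the order rests on the annotated exons, which for PTBP2 include a 3′ UTR of up to 10333 bases. Not divided by length, the mean normalised count of PTBP2 was 266, above the median of 175 over all genes. The mean counts of ELAVL2 and NOVA1, 152 and 76.2, were below that median.

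**Figure D3:**
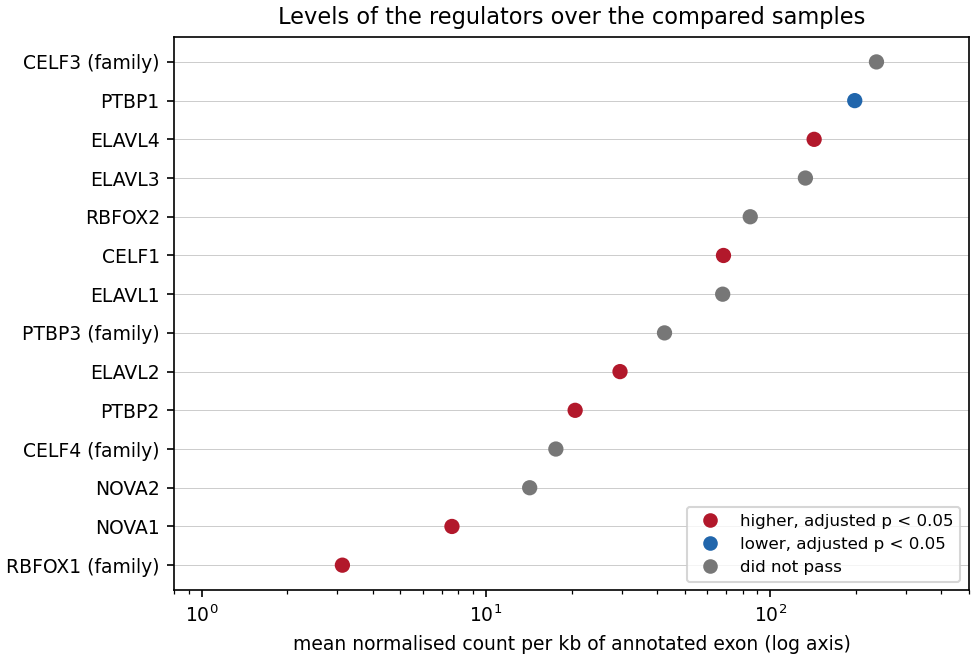
Mean normalised count per kb of annotated exon (log axis) over the compared samples, for the 10 regulators and 4 further family genes, coloured by the call in siPcif1 against siScram cells. PTBP1, at 198 per kb, is the highest of the 10 and NOVA1, at 7.59, the lowest.

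Most members have long genes and long 3′ UTRs, features the choice by family did not use. Their median gene length was 100856 bases against 28973 for all genes, and their median longest annotated 3′ UTR 4052 bases against 1428. UAUUUAU, an AU-rich word of the kind ELAVL proteins bind, was searched on the sense strand of the longest 3′ UTR and was present in 8 of 10 members. Among genes with a 3′ UTR within 1.2 times the length of each member's, the share with the word was 34.0% at the length of PTBP1 and 93.6% at that of PTBP2, with the other 8 members in between; it was 36.2% of all genes tested. Copies that overlap were each counted. ELAVL1 holds 5 such words close together, with an overlap among them, and 4.84% of genes of like length hold at least as many. ELAVL3 also holds 5, as do 1.35% of genes of like length, and ELAVL2 holds 3, as do 6.05%. PTBP2 holds 5 as well, but 18.5% of genes of like length do, and ELAVL4 and NOVA1 hold 2 each (21.3% and 14.8%). PTBP1 and CELF1 hold 1 each (34.0% and 74.7%), and RBFOX2 and NOVA2 hold 0. NOVA1 holds 4 copies of the RBFOX word UGCAUG, as do 1.04% of genes of like length, and the other members hold 0 to 2. One stretch of each kind is shown in DNA letters, with a single copy of the word in capitals. All are on the minus strand of GRCh38 and were chosen after the counts were seen. The ELAVL1 stretch holds further copies of the word that are not marked.
ELAVL1 (chr19:7961831-7961860): acctatttatgTATTTATttattgaagtgt
ELAVL2 (chr9:23692047-23692076): gtttacattttTATTTATgaagtttaaaac
NOVA1 (chr14:26446804-26446833): gacagtatttccTGCATGcttatttagaag
These letters say nothing of binding in these cells.

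Other regulators of tissue-specific splicing went both ways. Of 20 measured genes, 4 rose and 3 fell by DESeq2 and the authors' deposited table, 35.0% in all against the 34.0% of all genes, with a median of 0.02. MSI2, a Musashi RNA-binding protein of progenitor cells, was at 1.17 (SE 0.15) and the muscleblind genes MBNL3 and MBNL1 at 1.28 (SE 0.17) and 0.67 (SE 0.16) by the authors' deposited table. TIA1, a U-rich binding protein of splicing and stress granules, was at 0.66 (SE 0.17) by the authors' deposited table. The genes that fell were PCBP2, a poly(C)-binding protein, RBM38 and the other Musashi gene MSI1, at -0.57, -0.50 and -0.59 by the authors' deposited table. Once the trend was removed, 2 passed as higher and 3 as lower, 25.0% in all against 25.3% of all genes. MBNL1 (0.32), TIA1 (0.34), RBM38 (-0.27) and MSI1 (-0.44) then did not pass, while QKI (-0.72) and MBNL2 (-0.43), of the same list, did. SRRM4, the neuronal activator of microexons, named after its value was seen, was at -0.30 (SE 0.19, adjusted p by DESeq2 = 0.22) by the authors' deposited table.

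Genes of the REST and BAF circuit, in which neuronal cells are known to lose PTBP1 and exchange chromatin subunits together, went both ways. Of 19 measured genes 3 rose and 1 fell by DESeq2 and the authors' deposited table, 21.1% in all against the 34.0% of all genes, with a median of 0.12. The neuronal BAF subunit genes DPF1 and SS18L1 were at 0.95 (SE 0.21) and 0.55 (SE 0.15) and HDAC2 at 0.62 (SE 0.18) by the authors' deposited table. DPF2, which encodes a BAF subunit of non-neuronal cells too, was at -0.48 (SE 0.15) by the authors' deposited table. Chosen after their values were seen, REST itself, at a mean of 14.9 normalised counts, was at -0.66 (SE 0.29, adjusted p by DESeq2 = 0.0604) and ACTL6B, the neuronal counterpart of ACTL6A, at -0.34 (SE 0.16, adjusted p by DESeq2 = 0.0837) by the authors' deposited table. After the trend was removed, 3 passed as higher and 1 as lower, 21.1% in all against 25.3% of all genes. HDAC2 (0.30) and DPF2 (-0.34) then did not pass, whereas REST did, at -1.07 (adjusted p = 0.00188, from the DESeq2 statistics). DPF3 also passed, at 0.53, and ACTL6B was at -0.05. Without shrinkage REST was estimated at -1.09.

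Genes with exons known to be controlled by PTBP proteins went both ways. Of 13 measured genes, with PTBP2 itself among them, 2 rose and 5 fell by DESeq2 and the authors' deposited table, 53.8% in all against the 34.0% of all genes, with a median of -0.22. The apoptosis effector BAK1 and filamin A (FLNA) were at -1.16 (SE 0.15) and -1.01 (SE 0.16) by the authors' deposited table. SRC, ACTN1 and CLTB were the other genes that fell, at -0.42, -0.47 and -0.37 by the authors' deposited table. Once the trend was removed, 2 passed as higher and 2 as lower, BAK1 and FLNA being the lower ones, 30.8% in all against 25.3% of all genes, and CLTB turned to 0.0279. These are levels of whole genes and do not show how their exons were used.

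Messenger RNAs known to be bound by ELAVL proteins changed in both directions. Of 25 measured, 8 rose and 11 fell by DESeq2 and the authors' deposited table, 76.0% in all against the 34.0% of all genes, with a median of -0.28. After the trend was removed, 5 passed as higher and 8 as lower, 52.0% in all against 25.3% of all genes. The list holds several cell cycle and stress genes, and it was chosen with results of these data known. Cyclin B1 (CCNB1), MYC and the cell cycle inhibitor CDKN1A were at -1.93 (SE 0.15), -2.22 (SE 0.19) and -1.46 (SE 0.17), and cyclin D1 (CCND1) at 1.14 (SE 0.14), by the authors' deposited table. Among neuronal targets, named after their values were seen, RGS4, a regulator of G protein signalling, was at 0.97 (SE 0.15) by the authors' deposited table. Acetylcholinesterase (ACHE) fell, at -1.44 (SE 0.25), and the growth cone gene GAP43 did not pass, at -0.28 (SE 0.13, adjusted p by DESeq2 = 0.0877), by the authors' deposited table.

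**Figure D4:**
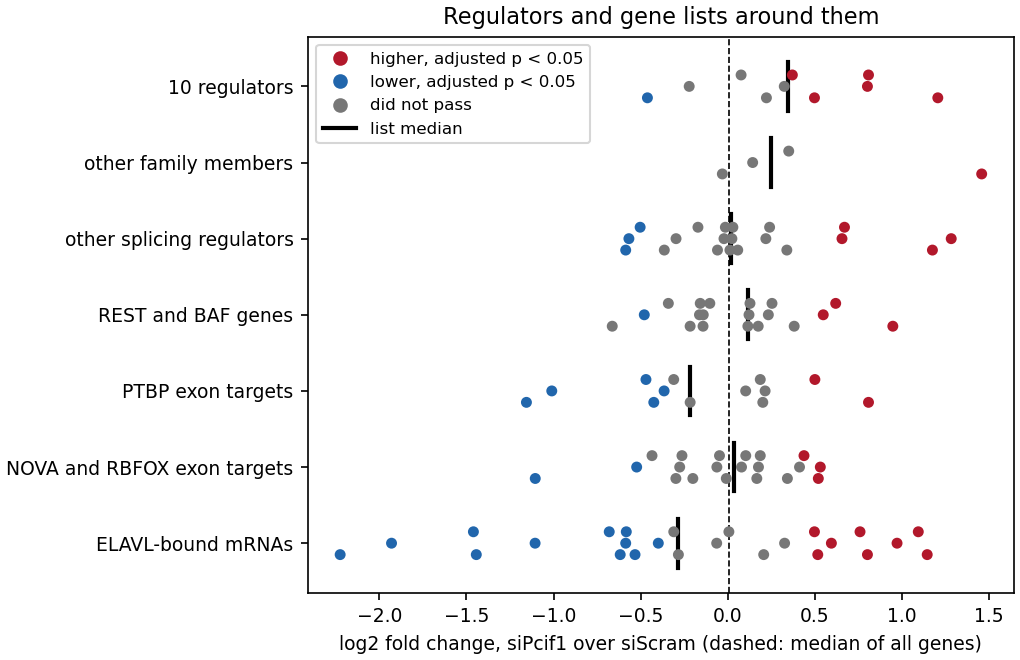
Log2 fold change, siPcif1 over siScram, of each measured gene (points) in the 10 regulators and in 6 lists around them, with list medians as black bars and the median of all genes as a dashed line. The median of the 10 regulators, 0.35, lies above those of the other lists.

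The cells carried the markers of their label. All 16 neuroblastoma markers were listed by the authors' deposited table, with mean normalised counts from 43.3 to 14091, and 6 rose and 4 fell by DESeq2, 62.5% in all against the 34.0% of all genes. Once the trend was removed, 9 passed as higher and 2 as lower, 68.8% in all against 25.3%. MYCN was at 1.09 (SE 0.16), and CHGB and ISL1 were at 0.89 (SE 0.16) and -0.77 (SE 0.14), by the authors' deposited table. Of 11 markers of immune, epithelial, endothelial, fibroblast, glial and blood cells, 7 were listed, with means of 10.1 to 270 normalised counts that summed to 605, and PTPRC, CD3E, PECAM1 and HBB were not. Among these 7, S100B, a glial calcium-binding protein, rose, at 1.21 (SE 0.22) by the authors' deposited table. It was the only 1 to pass by DESeq2, 14.3% against the 34.0% of all genes. With the trend removed 1 of the 7 passed as higher and 1, the fibroblast marker DCN, as lower, 28.6% in all against 25.3%. The part of these markers in the results for the regulators was not tested.

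**Figure D5:**
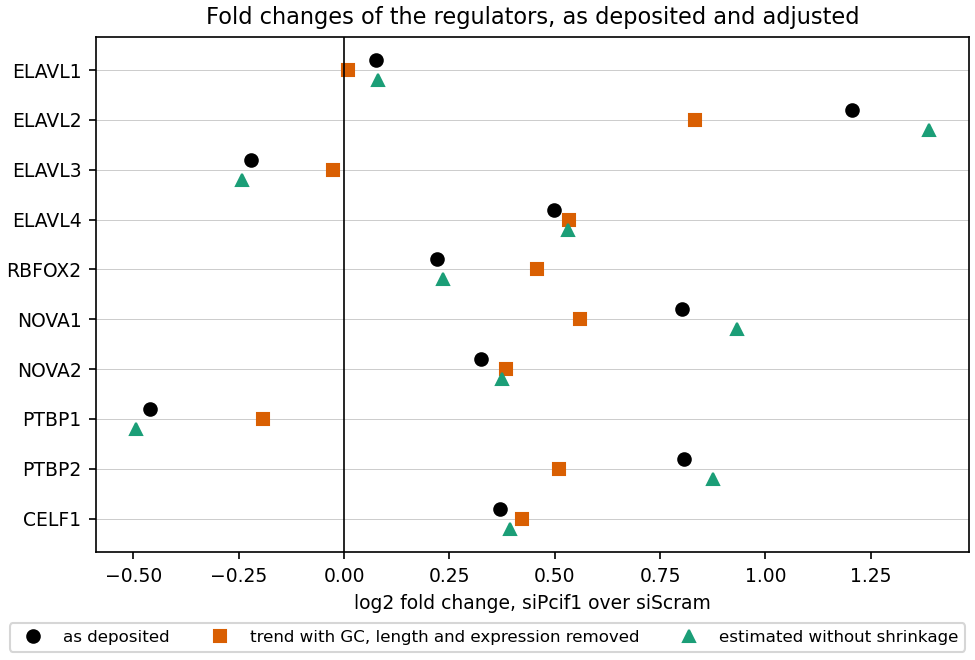
Log2 fold change, siPcif1 over siScram, of the 10 regulators as deposited (circles), after removal of the trend shared by all genes (squares) and estimated without shrinkage (triangles). Removal of the trend brings PTBP1 to -0.19 and RBFOX2 to 0.46, and without shrinkage ELAVL2 is at 1.39.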

How the data were processed

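RNA was measured in 6 samples of BE(2)-C cells. Tools listed in the submitters' processing notes are STAR 2.7.10a, cutadapt 3.7, DESeq2, HTSeq, bcl2fastq 2.20 and deepTools, with build hg38 and no roles or settings. Annotation and strand setting: not given in the sources used here. The authors deposited 1 comparison table with 6 columns for 13885 genes. The mean of normalised counts is a signal deposited by the authors. The authors also deposited a log2 fold change with its SE, both in log2 units. The Wald statistic is a score deposited by the authors. The p-value and adjusted p-value are those the authors deposited, the latter equal to a Benjamini-Hochberg adjustment over the 13885 genes.

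Values per library were not analysed, depth is unknown, and the SE (0.12 to 0.30, median 0.18) gives the precision. The SEs have an upper limit of 0.295, as happens when fold changes are shrunken under a normal prior with an SD of 0.59, which the header does not state; unshrunken values were estimated on that reading. The deposited Wald statistic differs from the fold change over its SE by up to 2.16, so the p-values do not follow exactly from the intervals. GENCODE 29 (GRCh38) gave symbols, lengths and coordinates, by identifier with the version removed (13877 genes matched, 13271 at the same version). Levels per kb used the union of a gene's annotated exons. The members and gene lists were chosen with earlier results of these data known, and no set test was made. Text names all 10 members, measured members of the same families, up to 4 genes per list by smallest adjusted p, genes needed for small counts, and a few said to be chosen after their values were seen. A few genes that this rule names are not reported here. MATR3 has 2 identifiers in the table, and the one with the higher mean was used. Calls were remade under the alternatives listed in the closing section. Among them was removal of a quadratic trend with GC content and length of the main transcript, gene length and mean. The main transcript has 1356 bases for RBFOX2, 1591 for ELAVL4 and 2108 for CELF1. These are shorter than the longest annotated 3′ UTRs of the same genes, at 5459, 2608 and 6198 bases. Steps were tested on simulated data. Work was done in Python 3.11.15 with pandas 2.3.3, scipy 1.17.1, numpy 2.4.6 and, for plots, matplotlib 3.10.9.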

Additional observations from a re-analysis of the deposited data

How the results depend on the processing

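Directions of the 10 members held under the alternatives run, with NOVA1 absent where a mean of at least 100 was asked. The 5 higher and 1 lower (2263 and 2453 of all genes) became 3 and 0 with a minimum absolute log2 change of 0.5 (1815 and 1855 of all genes), 2 and 0 in a test against a change of 0.3 (537 and 723), 2 and 0 with a Holm adjustment (491 and 706), and 0 and 0 with the Wald statistic scaled to its robust SD (20 and 114). With the trend removed, 6 members were higher and 0 lower (1722 and 1782 of all genes), and CLTB reversed to 0.0279. A threshold of 0.01 left 4 higher and 1 lower (1489 and 1685 of all genes). At 0.1 there were 5 and 1 (2793 and 2933), and after centring 5 and 1 (2231 and 2491). A mean of at least 100 left 4 higher and 1 lower of 9 members, against 1716 and 1956 of the 8798 genes with such a mean. ELAVL2 and PTBP2 lost their calls only under the scaled statistic (adjusted p 0.39 and 0.58). Over all alternatives the adjusted p of PTBP1 ran from 0.00693 to 1. Without shrinkage RBFOX1 was estimated at 2.01. The cause of these changes was not tested. No paired analysis was possible because the table holds no values per sample, and for that reason no replicate was left out. Depth per library is unknown.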

Other observations

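Genes with exons known to be controlled by NOVA or RBFOX proteins were also listed. By DESeq2 and the authors' deposited table, 3 of 20 measured rose and 2 fell, 25.0% in all against 34.0% of all genes, and the median was 0.04. Fibronectin (FN1) was at -1.10 (SE 0.22) by the authors' deposited table and EPB41, of the membrane skeleton, at -0.52 (SE 0.15). SNAP25, of synaptic vesicle fusion, was at 0.52 (SE 0.14) by the authors' deposited table, the inhibitory synapse scaffold GPHN at 0.53 (SE 0.17) and the kinase MAP4K3 at 0.44 (SE 0.17). With the trend removed 6 of the 20 passed, 3 in each direction, against 25.3% of all genes, and MAP4K3, at 0.17, did not pass.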
